A study of Mus musculus with 3 samples.

Results

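Midkine (*Mdk*) and pleiotrophin (*Ptn*), with 6 genes for their receptors (*Ptprz1*, *Sdc1*, *Sdc2*, *Sdc3*, *Sdc4* and *Lrp1*), were followed through spatial transcriptomes of the mouse thymus. These 8 genes were picked by symbol among 54838 listed, and all 8 had UMIs (unique molecular identifiers, 1 per captured transcript) in every section. The sections came from 3 female C57BL/6 mice: KO1134 (*Trp53*-/-, 17 weeks), KO1308 (*Trp53*-/-, 21 weeks) and WT1101 (*Trp53*+/+, 17 weeks). The knockout is carried by the whole animal, the study describes such thymuses as pre-neoplastic, and each mouse gave 1 section. With 1 WT section, the genotypes were not tested against each other, and every interval covers counting error only.

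Midkine and pleiotrophin are small secreted proteins that bind heparin and act on growth, survival and migration of nearby cells. They bind the chondroitin sulphate chains of PTPRZ1, a receptor tyrosine phosphatase, and the heparan sulphate chains of the syndecans, and LRP1, a large endocytic receptor, takes them up. In the thymus, immature thymocytes fill the cortex around cortical epithelium, whereas the medulla holds AIRE-expressing medullary epithelium and more fibroblasts, vessels and antigen-presenting cells.

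The grid of bins was 27 µm wide, and bins with at least 300 genes and at most 30% mitochondrial UMIs over tissue were kept. They numbered 12009 in KO1134, 16140 in KO1308 and 27104 in WT1101, with a mean of 2591, 1090 and 1497 UMIs per bin. A bin can hold several cells, and fewer cells of a type and less RNA per cell cannot be told apart. Levels are given as CPM, the UMIs of a gene per 1000000 UMIs of the same area. *Trp53* had 17.0 CPM in KO1134, 25.1 CPM in KO1308 and 79.9 CPM in WT1101, and the counts per gene do not tell which exons the remaining KO transcripts came from. KO and WT tissue were permeabilised for different times, which cannot be told apart from genotype. The study's own list of libraries gives mouse KO1308 a depth nearer to that of the section labelled KO1134, so section names follow the labels and only the genotype is relied on.

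Each bin was placed in a compartment from genes that are not members, read over the surrounding 7 × 7 bins. Fat and B-cell zones were those with more fat-gene or B-cell-gene UMIs than thymus-gene UMIs, the rim lay within 100 µm of the outer edge, and medulla and cortex were split by which epithelial list had more UMIs. *Aire*, a gene of medullary epithelium, was found in the medulla of WT1101 at 83.3 CPM and of KO1308 at 70.6 CPM. In KO1134 it had 70.3 CPM in medulla without the 195 bins bordered mostly by B-cell zone, which held 0 *Aire* UMIs. Medullary epithelium genes set the medulla and no cortex level of *Aire* is given, so these levels are no independent check of the name. Medulla held 5.39% of UMIs in WT1101, 16.7% in KO1134 and 14.7% in KO1308. Fat and B-cell zones were found in the KO sections only, with 1490 and 1681 bins in KO1134 and 842 and 441 bins in KO1308. The WT and KO1308 tissue reached the side of the capture area, so 139 and 191 of their outermost bins are not a natural edge.

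**Figure D1:**
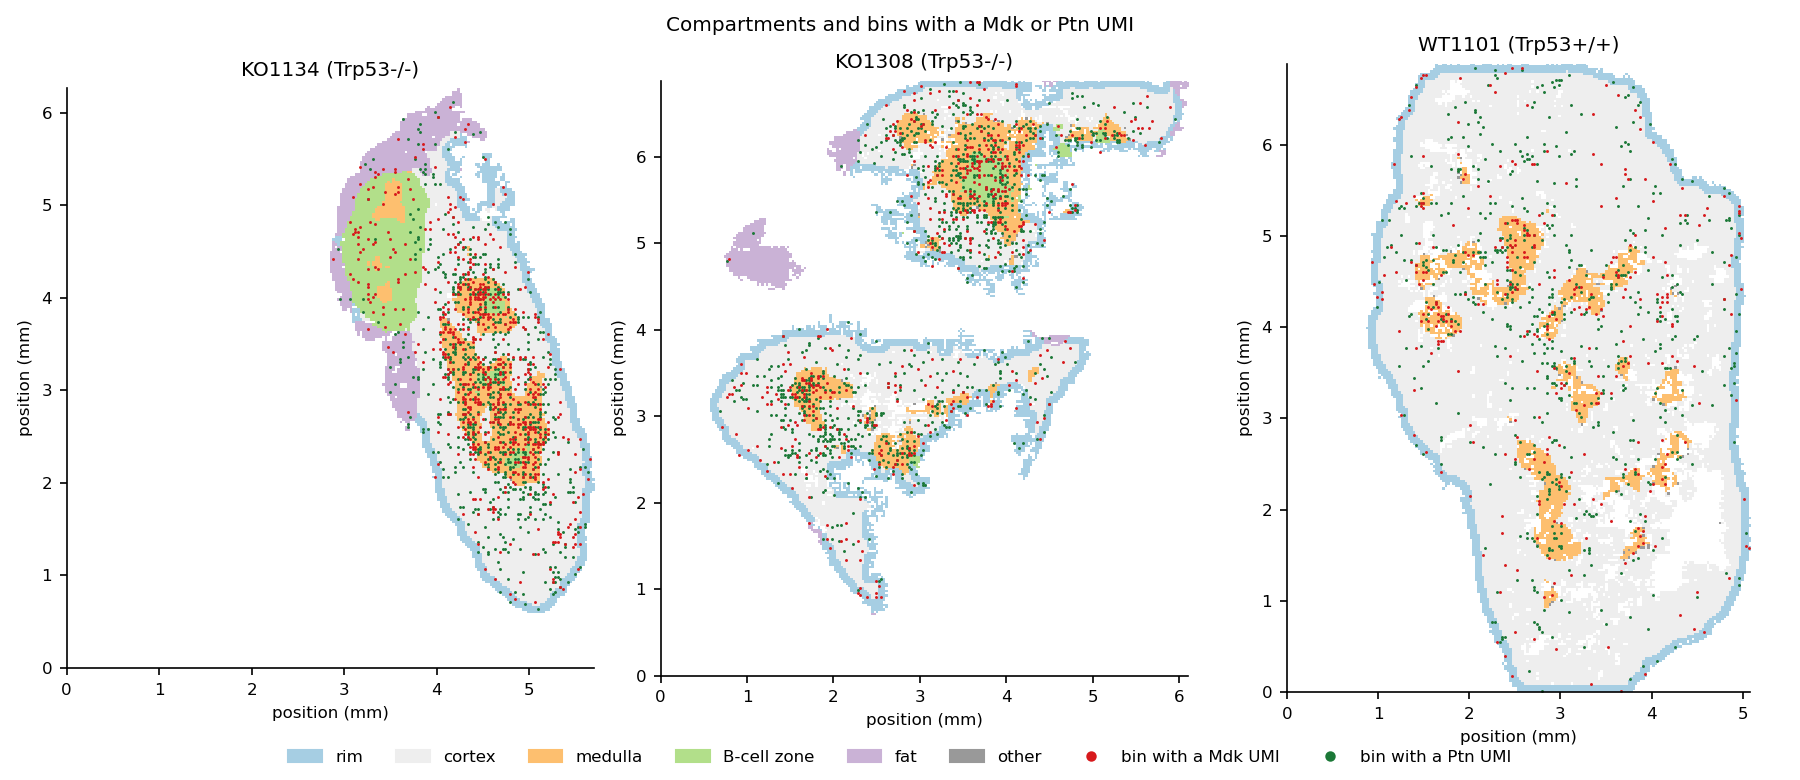
Each square is a 27 µm bin coloured by compartment, with axes in mm, and dots mark bins with a UMI of Mdk (red) or Ptn (green) in the 3 sections. Dots are denser on the medulla in each section, where 50%, 34.6% and 33.4% of Mdk-positive bins of KO1134, KO1308 and WT1101 lay. Medulla made up 16.1%, 14.1% and 8.78% of all bins. Cortex held 30.9%, 38.5% and 53.8% of Mdk-positive bins.

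Of the 3 members that were at least 2-fold higher in medulla than in cortex of every section, *Mdk*, *Ptn* and *Ptprz1*, the promoters of *Ptn* and *Ptprz1* are shown because these genes share the medullary pattern. Of the 8 members 6 matched a RefSeq promoter, all but *Mdk* and *Sdc2*. Both are RefSeq sequences on GRCm38.p6, from 250 bases before to 50 bases after the start of transcription, with capitals marking the motifs searched on both strands, the TATA box (TATAAA), the GC box (GGGCGG) and the CCAAT box (CCAAT). *Ptn* spans chr6:36810130-36810429 on the minus strand and *Ptprz1* spans chr6:22875252-22875551 on the plus strand.
Ptn: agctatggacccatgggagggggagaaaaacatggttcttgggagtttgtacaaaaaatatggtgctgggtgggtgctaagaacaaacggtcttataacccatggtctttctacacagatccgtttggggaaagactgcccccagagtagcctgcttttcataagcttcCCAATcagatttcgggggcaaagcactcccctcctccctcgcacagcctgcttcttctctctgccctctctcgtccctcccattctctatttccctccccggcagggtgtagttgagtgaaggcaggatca
Ptprz1: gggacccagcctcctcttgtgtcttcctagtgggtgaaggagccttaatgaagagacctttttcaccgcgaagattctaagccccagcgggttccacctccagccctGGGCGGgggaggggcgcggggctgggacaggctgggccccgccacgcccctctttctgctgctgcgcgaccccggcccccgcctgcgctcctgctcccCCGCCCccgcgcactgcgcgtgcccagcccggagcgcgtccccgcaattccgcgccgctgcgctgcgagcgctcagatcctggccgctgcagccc

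These 2 windows differ in make-up. *Ptn* held 1 CCAAT and 6 CG dinucleotides, near the median of 7 over 32851 promoters, and *Ptprz1* held 2 GGGCGG and 29 CG dinucleotides, more than 87.1% of promoters. Neither held TATAAA, which 13.6% of promoters hold, whereas 35.7% hold GGGCGG and 37.4% hold CCAAT. Of the other members, *Sdc1*, *Sdc3*, *Sdc4* and *Lrp1* held 3, 3, 4 and 1 GGGCGG. Such matches describe the letters of the window and nothing of the factors that bind there.

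Positions are those of whole genes on GRCm38. *Mdk* (ENSMUSG00000027239) lies at chr2:91929805-91932297, *Ptn* (ENSMUSG00000029838) at chr6:36714929-36810220 and *Ptprz1* (ENSMUSG00000068748) at chr6:22875502-23052916. The syndecan genes lie at chr12:8771323-8793715 (*Sdc1*), chr15:32920723-33034935 (*Sdc2*), chr4:130792537-130826319 (*Sdc3*) and chr2:164424247-164443887 (*Sdc4*), and *Lrp1* lies at chr10:127538161-127621148. Each symbol had 1 identifier in the gene list.

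*Mdk* was a gene of the medulla in every section. Its level in the medulla of KO1134, KO1308 and WT1101 was 82.5 (74.8 to 90.6), 80.3 (69.7 to 92.0) and 64.5 (54.3 to 76.1) CPM, and its level in cortex was 15.2 (13.3 to 17.2), 22.3 (19.5 to 25.5) and 6.06 (5.25 to 6.96). Medulla thus exceeded cortex 5.43-fold (4.63 to 6.38) in KO1134, 3.60-fold (2.96 to 4.37) in KO1308 and 10.6-fold (8.52 to 13.3) in WT1101. The WT interval did not overlap either KO interval. With the medulla list taken without *Ccl21a*, a gene with near-identical copies that can share reads, the KO ratios were 4.29 and 2.71.

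*Ptn* was also higher in medulla than in cortex of every section. It had 80.3 (72.8 to 88.4), 155 (140.3 to 171) and 80.1 (68.6 to 92.8) CPM in the medulla of KO1134, KO1308 and WT1101, against 24.4, 51.5 and 14.4 CPM in cortex. The medulla exceeded the cortex 3.29-fold (2.86 to 3.79), 3.01-fold (2.63 to 3.44) and 5.56-fold (4.65 to 6.63). *Ptprz1*, the phosphatase receptor, was the only receptor at 2-fold or more in every section. It had 24.0, 38.4 and 21.5 CPM in medulla against 8.32, 16.3 and 9.99 CPM in cortex. The ratios were 2.89 (2.24 to 3.72), 2.36 (1.82 to 3.06) and 2.15 (1.55 to 2.93). The intervals of KO1308 and WT1101 reach below 2, and *Sdc2*, given below, came close to the same limit. Among 18511 genes with at least 50 UMIs in medulla and cortex that had not served to define them, 5.4% were at least 2-fold higher in medulla in every section.

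The other receptors were higher in medulla than in cortex in every section, but not 2-fold in each. *Sdc2* reached 2.44-fold, 1.96-fold and 2.26-fold in KO1134, KO1308 and WT1101, and *Sdc1*, the syndecan of epithelium and plasma cells, 1.71-fold, 1.43-fold and 1.53-fold. *Sdc3* was 1.21-fold (1.05 to 1.40) in KO1134 but 2.15-fold (1.76 to 2.62) in KO1308 and 2.59-fold (2.10 to 3.16) in WT1101. *Sdc4*, a syndecan of cell adhesions, spanned 1.17-fold to 1.64-fold, and *Lrp1* spanned 1.19-fold to 1.45-fold. The summed level of the 6 receptors in medulla was 264 CPM, 330.4 CPM and 230.5 CPM, which is 1.39, 1.71 and 1.74 times that in cortex.

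**Figure D2:**
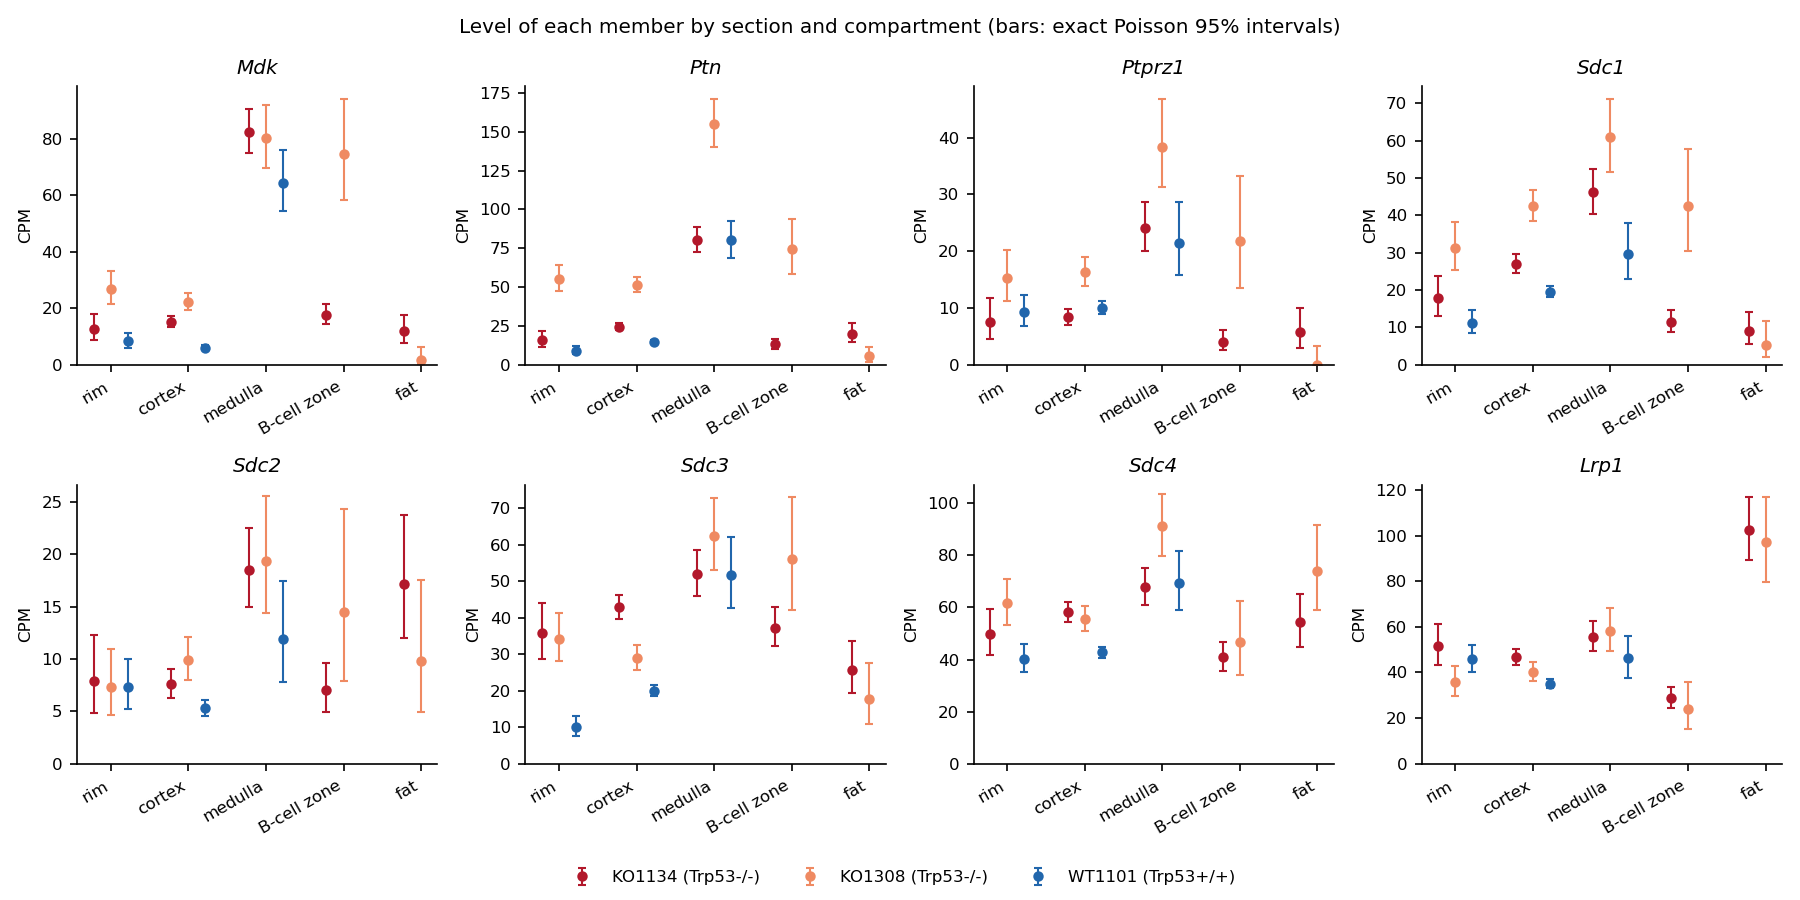
Points give the CPM of each gene in each compartment of the 3 sections, with exact Poisson 95% intervals as bars. Of the 5 compartments drawn, medulla is the highest for Mdk and Ptn in every section, and fat is the highest for Lrp1 in both KO sections, at 102.5 and 97.1 CPM.

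Around the medulla, *Mdk* and *Ptn* fell off over a few bins. In cortex within 100 µm of medulla, the *Mdk* level of KO1134, KO1308 and WT1101 was 31.6 (25.7 to 38.5), 40.3 (31.5 to 50.8) and 26.6 (21.0 to 33.2) CPM. From 200 to 400 µm away it was 9.63 (7.08 to 12.8), 16.3 (11.9 to 21.8) and 3.62 (2.46 to 5.13) CPM. Near the medulla the WT interval overlapped both KO intervals, and farther away it overlapped neither.

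*Ptn* had 44.9, 114.6 and 47.9 CPM in the nearest 100 µm, and 17.8, 38.4 and 12.6 CPM from 200 to 400 µm. In WT1101 it went on to 6.41 CPM (4.60 to 8.70) beyond 800 µm. The medullary epithelium markers moved in the same way, from 874, 1182 and 645 CPM in the nearest 100 µm to 209.9, 483 and 112 CPM from 200 to 400 µm in KO1134, KO1308 and WT1101. These markers also set the border of the medulla, so their fall with distance follows in part from the rule. Their part in the ligand levels was not tested.

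Within the medulla of the KO sections *Mdk* was higher in the interior. Its level within 54 µm of the border was 71.4 (61.5 to 82.5) CPM in KO1134 and 63.6 (50.8 to 78.6) CPM in KO1308. Deeper than 108 µm it was 110.1 (89.7 to 133.6) and 123 (91.0 to 164) CPM. The KO1134 classes include the 195 bins bordered mostly by B-cell zone, with *Mdk* at 8.62 CPM. How much these bins lower the class near the border of KO1134 was not tested. The medullary epithelium markers, which set that border, went from 1789 to 2345 CPM and from 1610 to 2161 CPM. Their rise inward follows in part from the rule, and their part was not tested. In WT1101 only 64 bins lay that deep, with 4 *Mdk* UMIs. *Sdc3* stayed level across the cortex of KO1134, with 45.2 CPM within 100 µm of the medulla and 39.2 CPM beyond 800 µm, whereas it went from 39.7 (30.9 to 50.2) to 21.2 (11.9 to 34.9) CPM in KO1308 and from 35.5 (29.0 to 43.1) to 14.5 (11.7 to 17.8) CPM in WT1101.

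**Figure D3:**
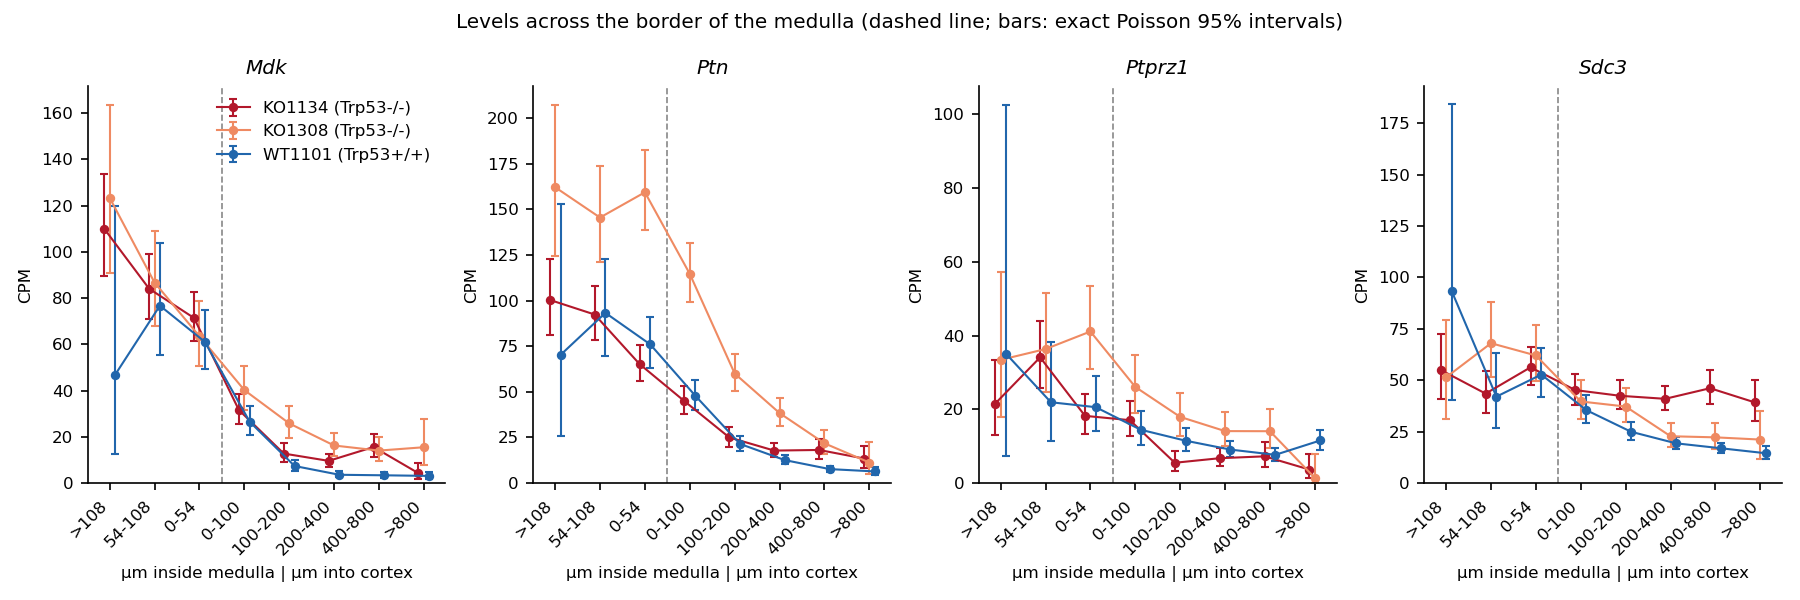
CPM of 4 genes is plotted in classes of distance (µm) on either side of the medulla border, with medulla left of the dashed line and cortex right of it, exact Poisson 95% intervals as bars and 1 line per section. Mdk and Ptn drop across the border in each section, and Sdc3 lies between 39.2 and 46.2 CPM in the cortex of KO1134.

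Levels outside the tissue bear on the cortex values. In KO1308, 9952 bins at least 135 µm from tissue held 2176860 UMIs, with *Mdk* at 23.0 (17.0 to 30.3) and *Ptn* at 32.2 (25.1 to 40.6) CPM. The *Mdk* level there was about that of the cortex of the same section, at 22.3 CPM, and *Sdc2*, *Sdc3*, *Sdc4* and *Lrp1*, at 10.1, 39.0, 65.7 and 64.3 CPM, were above their cortex levels of 9.88, 29.0, 55.6 and 40.2 CPM. In WT1101 the same area held 1 *Mdk* UMI in 187447 UMIs, and in KO1134 it held 0 in 29260, which allows up to 126 CPM. Stray RNA and small pieces of tissue were not told apart in this area. The part of stray RNA in the cortex level of KO1308 was not tested.

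The B-cell zones of the KO sections differed in place and in ligand. The largest zone of KO1134 had 1514 bins, with medulla in 28.1% of the surrounding bins, and held little ligand, with 12.8 (9.87 to 16.4) CPM of *Mdk* and 3.60 (2.14 to 5.70) CPM of *Ptn*. The smaller zones of that section, 167 bins in all, had 75.5 (51.6 to 107) CPM of *Mdk* and 127 (95.7 to 166) CPM of *Ptn*. The largest zone of KO1308, with 345 bins, was bordered wholly by medulla and had 81.4 (63.6 to 103) CPM of *Mdk* and 73.4 (56.5 to 93.7) CPM of *Ptn*. Its *Mdk* interval overlapped that of the medulla of the same section, and its *Ptn* interval lay below. Over all B-cell zone bins of KO1308, medullary epithelium markers had 1173 CPM and the B-cell genes 573 CPM. In those of KO1134 each had 849 CPM. In KO1308 the name B-cell zone thus rests on the rule, and these bins also carry medullary markers. The smaller zones of KO1308, 96 bins, held 1 *Mdk* UMI, at 10.8 (0.273 to 60.2) CPM.

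Some bins called medulla by the gene lists lay next to B-cell zone in KO1134. In all, 5 groups with 195 bins had mostly B-cell zone as neighbours, and they held 0 *Aire* UMIs, which goes against a medullary name. They had 6 *Mdk* UMIs, at 8.62 (3.16 to 18.8) CPM, and 0 *Ptn* UMIs, which allows up to 5.30 CPM. Without them the medulla of KO1134 had 93.9 CPM of *Mdk*, 92.8 CPM of *Ptn* and 70.3 CPM of *Aire*.

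Fat set the members apart from each other. *Lrp1*, which clears lipoprotein remnants in adipocytes and liver, was 2.19-fold (1.88 to 2.56) and 2.41-fold (1.93 to 2.99) higher in fat than in cortex of KO1134 and KO1308. *Sdc1* was lower there, at 0.336 (0.201 to 0.532) and 0.126 (0.0459 to 0.276) of cortex. *Sdc3* was at 0.600 and 0.614 of cortex.

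The fat of the KO sections differed in the ligands. It had 11.9 CPM of *Mdk* and 20.01 CPM of *Ptn* in KO1134, but 1.78 (0.216 to 6.43) and 5.34 (1.96 to 11.6) CPM in KO1308. *Ptprz1* had 12 UMIs in the fat of KO1134 and 0 in that of KO1308, which allows up to 3.29 CPM there. *Sdc2*, a syndecan of mesenchymal cells, was 2.27-fold (1.52 to 3.32) over cortex in the fat of KO1134 and 0.992-fold (0.479 to 1.85) in that of KO1308.

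Beside WT, the sum over tissue was higher in both KO sections for 7 of the 8 genes and lower in both for none. Of 19291 genes, 44.1% were above WT in both and 31.1% were below. *Mdk* had 26.5 (24.7 to 28.3), 33.2 (30.6 to 36.0) and 9.51 (8.59 to 10.5) CPM in KO1134, KO1308 and WT1101, or 2.78 and 3.49 times the WT level. *Ptn* had 30.8, 66.1 and 17.3 CPM, or 1.79 and 3.83 times WT. *Mdk* was the member at 2-fold or more in both KO sections, as were 11.9% of the same genes, and no member was at 0.5 of WT or less in both, as were 2.21%. That share of members, 1 of 8, is near the background of all genes.

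No receptor was at 2-fold or more in both KO sections. *Sdc3* had 41.7, 35.6 and 20.4 CPM in KO1134, KO1308 and WT1101, or 2.04 and 1.74 times WT. *Sdc1* was at 1.34 and 2.15 times, *Sdc2* at 1.68 and 1.88 times, *Sdc4* at 1.27 and 1.43 times, and *Lrp1* at 1.33 and 1.21 times. *Ptprz1* was at 0.958 (0.825 to 1.11) in KO1134 and 1.77 (1.53 to 2.05) in KO1308, so its direction differed between the KO sections. The median ratio of the 8 members was 1.505 and 1.83, beside 1.03 and 1.16 over all genes tested.

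Where the tissue was split, the ligand ratios depended on the compartment. In cortex *Mdk* was 2.51 times (2.07 to 3.04) and 3.69 times (3.03 to 4.49) the WT level, whereas in medulla it was 1.28 times (1.05 to 1.56) and 1.24 times (1.00 to 1.55). *Ptn* in medulla was 1.00 times (0.839 to 1.20) WT in KO1134 and 1.94 times (1.62 to 2.33) in KO1308. In KO1134 the medullary ratios without the 5 groups next to B-cell zone were 1.46 (1.20 to 1.77) for *Mdk* and 1.16 (0.969 to 1.39) for *Ptn*. Medulla was the compartment with the smallest *Mdk* ratio of the 3 compared in both KO sections. The medullary epithelium markers, which also set the compartments, differed as well. They had 347, 605 and 151 CPM in the cortex of KO1134, KO1308 and WT1101, and 2036, 1797 and 1396 CPM in the medulla. Their part in the *Mdk* ratios was not tested.

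Medulla also held a larger share of UMIs in the KO sections than in WT. It did not hold more bins, with 1934 in KO1134, 2274 in KO1308 and 2380 in WT1101. With rim, cortex and medulla weighted by the UMIs they hold in WT, *Mdk* was 1.95 and 2.74 times WT rather than 3.13 and 3.47 times in the same 3 compartments at their own weights. For *Ptn* the weighted ratios were 1.53 and 3.34 rather than 2.08 and 4.04, and for *Ptprz1* 0.862 and 1.65 rather than 1.11 and 1.88. No member was then at 2-fold in both KO sections. In all, 52.1% of *Mdk* UMIs of KO1134, 35.4% of KO1308 and 36.5% of WT1101 lay in medulla.

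*Sdc3*, a syndecan best known from neurons and also found in macrophages, was the member at 2-fold or more over WT in the rim of both KO sections. Its rim level was 0.833 (0.661 to 1.04) of cortex in KO1134 and 1.18 (0.936 to 1.48) in KO1308. In WT1101 it was 0.499 (0.370 to 0.660), so the rim was low in WT1101 and near cortex in the KO sections. It had 35.7 (28.7 to 43.9) and 34.2 (28.1 to 41.3) CPM in the rim of KO1134 and KO1308 against 9.97 (7.47 to 13.04) CPM in WT1101, or 3.58 and 3.43 times. In medulla it had 51.9, 62.4 and 51.7 CPM, and the ratios were 1.00 (0.803 to 1.26) and 1.21 (0.944 to 1.55). The macrophage markers in the rim had 754, 560 and 289 CPM in KO1134, KO1308 and WT1101, and their part in the *Sdc3* level was not tested. Outside the kept tissue, where small pieces of tissue can lie, KO1308 had *Sdc3* at 39.0 (31.2 to 48.3) CPM, an interval that overlaps that of its rim.

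The counts past 2-fold stayed small in each compartment. *Sdc3* in the rim, beside 8.07% of genes, *Mdk* in the cortex, beside 8.4%, and no member in the medulla, beside 2.96%, were at 2-fold or more in both KO sections. No member was at 0.5 of WT or less in both, as were 1.46%, 1.89% and 1.43% of genes. The fibroblast markers also differed between the sections. They had 256, 298 and 114 CPM in the cortex and 464, 627 and 326 CPM in the medulla of KO1134, KO1308 and WT1101. Their part in the ratios of the members was not tested.

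**Figure D4:**
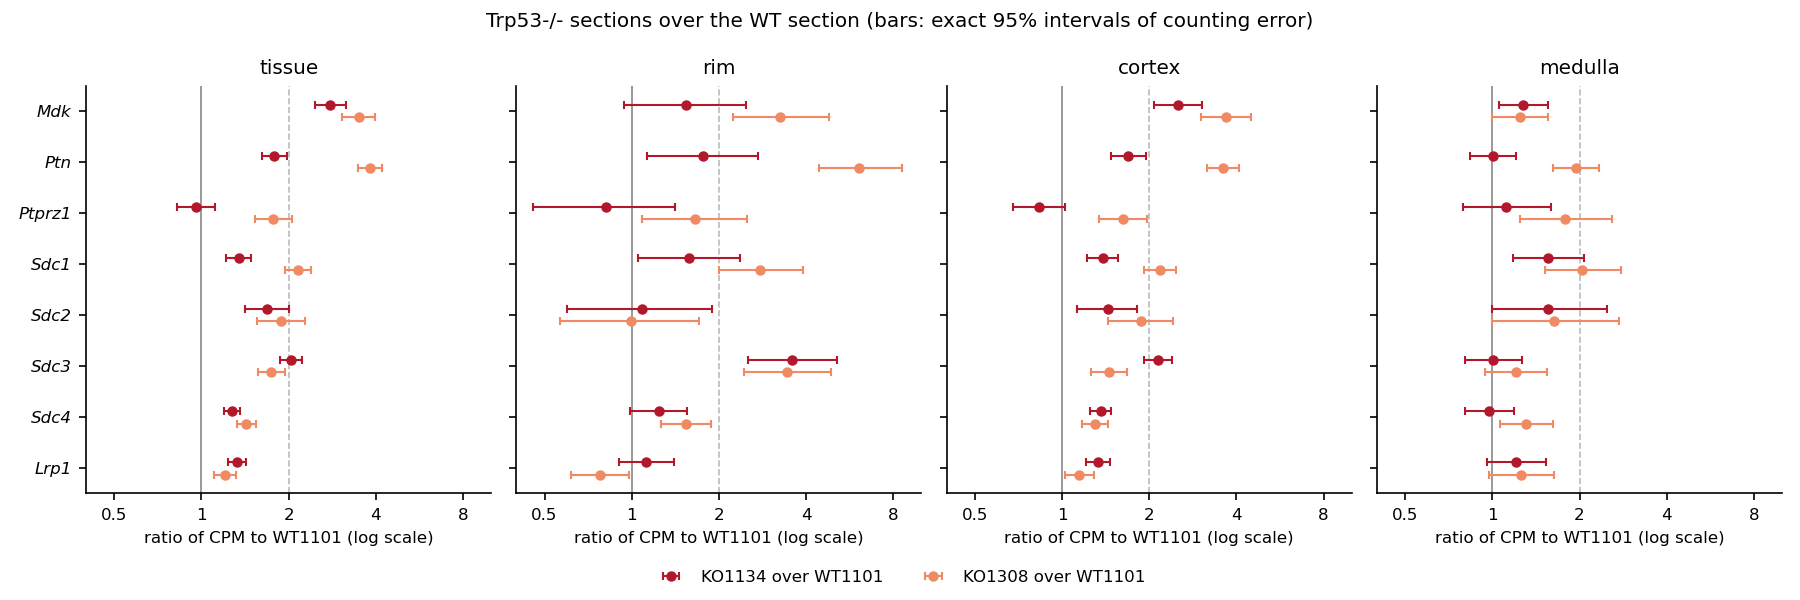
Ratios of CPM to WT1101 are plotted on a log axis for the 8 genes in tissue, rim, cortex and medulla, with exact 95% intervals of counting error and lines at 1 and 2. The Mdk points lie at 2.51 and 3.69 in cortex and at 1.28 and 1.24 in medulla.

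Most ligand-positive bins held a single UMI. *Mdk* was found in 680, 509 and 338 bins of KO1134, KO1308 and WT1101, of which 17.6%, 11.8% and 11.8% had at least 2 UMIs, and *Ptn* was found in 810, 1022 and 648 bins. These are 5.66%, 3.15% and 1.25% of bins for *Mdk*, and such shares depend on depth. After each bin was thinned to 500 UMIs, a *Mdk* UMI was expected in 1.27%, 1.56% and 0.540% of bins. *Ptn* went from 6.74%, 6.33% and 2.39% to 1.60%, 3.27% and 1.01%.

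*Ptn*-positive bins were rich in fibroblast transcripts. Against bins without *Ptn* of the same compartment and depth, 6 fibroblast genes (*Col1a1*, *Col1a2*, *Col3a1*, *Dcn*, *Lum* and *Pdgfra*) were 1.51-fold (1.43 to 1.60), 1.36-fold (1.26 to 1.46) and 2.98-fold (2.72 to 3.25) higher in KO1134, KO1308 and WT1101. Medullary epithelium genes were 1.21-fold, 1.13-fold and 1.36-fold higher, and T cell genes were at 0.858, 0.926 and 0.955 of the matched bins. Here 2 genes other than *Ptn* passed 1.5-fold in every section, the laminin receptor *Bcam* at 1.53, 1.70 and 2.22 and the lysophospholipase *Enpp2* at 1.75, 1.53 and 3.54, named after their values were seen.

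*Mdk*-positive bins were richer in medullary epithelium and fibroblast genes in every section. The 7 medullary marker genes, which also set the compartments, were 1.37-fold (1.32 to 1.42), 1.21-fold (1.13 to 1.28) and 1.504-fold (1.37 to 1.65) over matched bins, and the fibroblast genes were 1.19-fold, 1.21-fold and 1.60-fold. Mural genes were at 1.48 (1.34 to 1.64), 1.13 (0.957 to 1.31) and 1.11 (0.887 to 1.36), and cortical epithelium genes at 1.02, 0.915 and 1.09. In KO1134 the erythroid genes were 3.89-fold (3.25 to 4.62) over matched bins, from 129 UMIs, and in KO1308 and WT1101 they were at 0.689 and 0.824.

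Receptor-positive bins had cell mixes of their own. Bins with *Lrp1* were richer in fibroblast genes, 1.42-fold, 1.29-fold and 3.02-fold in KO1134, KO1308 and WT1101, and in macrophage genes, 1.16-fold, 1.15-fold and 1.73-fold. Bins with *Sdc3* were richer in macrophage genes, 1.26-fold, 1.13-fold and 1.66-fold, while their fibroblast genes were at 1.00, 0.987 and 1.23. Bins with *Sdc1* were richer in plasma cell genes, 1.37-fold, 1.16-fold and 1.35-fold.

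Bins with *Ptprz1* were richer in epithelial genes, 1.41-fold, 1.12-fold and 1.25-fold. The outer lining showed in WT1101, where mesothelium genes (*Msln*, *Upk3b* and *Lrrn4*) were 8.31-fold (7.16 to 9.59) over matched bins where *Lrp1* was found, 7.17-fold (5.12 to 9.76) where *Sdc2* was found and 5.98-fold (5.10 to 6.98) where *Sdc4* was found. In KO1134 and KO1308 this was 1.34-fold (0.905 to 1.92) and 1.09-fold (0.744 to 1.54) for *Lrp1*, 1.57-fold (0.753 to 2.89) and 1.29-fold (0.667 to 2.25) for *Sdc2*, and 2.22-fold and 2.06-fold for *Sdc4*.

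Receptor transcripts lay close to the ligands almost everywhere. A bin with a UMI of any of the 6 receptors was in or next to 98.5%, 87.4% and 79.6% of *Mdk*-positive bins of KO1134, KO1308 and WT1101, but also in or next to 97.0%, 85.7% and 79.6% of matched bins without *Mdk*. For *Ptn* the shares were 98.8%, 85.8% and 79.8%, against 96.3%, 83.3% and 75.8%. The median distance from a *Mdk*-positive bin to the nearest other receptor-positive bin was 27 µm, the width of 1 bin, in each section. From matched bins without *Mdk* it was also 27 µm in each section.

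In the same bin the receptors were slightly above matched bins. Their summed level where *Mdk* was found was 1.22-fold (1.11 to 1.33) in KO1134, 1.15-fold (0.996 to 1.32) in KO1308 and 1.06-fold (0.858 to 1.30) in WT1101. Where *Ptn* was found it was 1.19-fold (1.10 to 1.29), 1.14-fold (1.03 to 1.26) and 1.32-fold (1.13 to 1.52). The median over genes with at least 500 UMIs in every section was between 0.980 and 0.991 in all 6 settings. The 95th percentile of these genes was 1.26, 1.29 and 1.38 for *Mdk* and 1.24, 1.24 and 1.34 for *Ptn* in KO1134, KO1308 and WT1101. Each summed receptor ratio lay below it.

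*Lrp1* with *Ptn* was at 2.08-fold (1.63 to 2.61) in WT1101, with 1.47-fold (1.26 to 1.72) in KO1134 and 1.09-fold (0.844 to 1.39) in KO1308. *Sdc2* with *Ptn* was at 2.54-fold (1.45 to 4.13) in WT1101, from 16 UMIs, and at 1.27-fold (0.885 to 1.77) and 1.49-fold (0.963 to 2.20) in the KO sections. Both are genes whose bins, like those of *Ptn*, were rich in fibroblast transcripts. *Ptprz1* with *Mdk* was at 2.14-fold (1.17 to 3.59) in WT1101, from 14 UMIs, but at 1.27-fold and 1.03-fold in the KO sections, with intervals that include 1. *Sdc1* with *Mdk* was at 1.47-fold (1.18 to 1.80), 1.20-fold (0.872 to 1.62) and 1.501-fold (0.889 to 2.37).

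No member was at 1.5-fold or more in ligand-positive bins of every section, with 5 members tested for *Mdk* and 4 for *Ptn*. Over all genes tested, 0% passed for *Mdk* and 0.0287% for *Ptn*, so few genes of any kind reach this fold. Intervals of the ligands in each other's bins included 1. *Ptn* in bins with *Mdk* was 1.18-fold (0.971 to 1.41), 1.01-fold (0.782 to 1.29) and 0.829-fold (0.453 to 1.39) over matched bins.

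**Figure D5:**
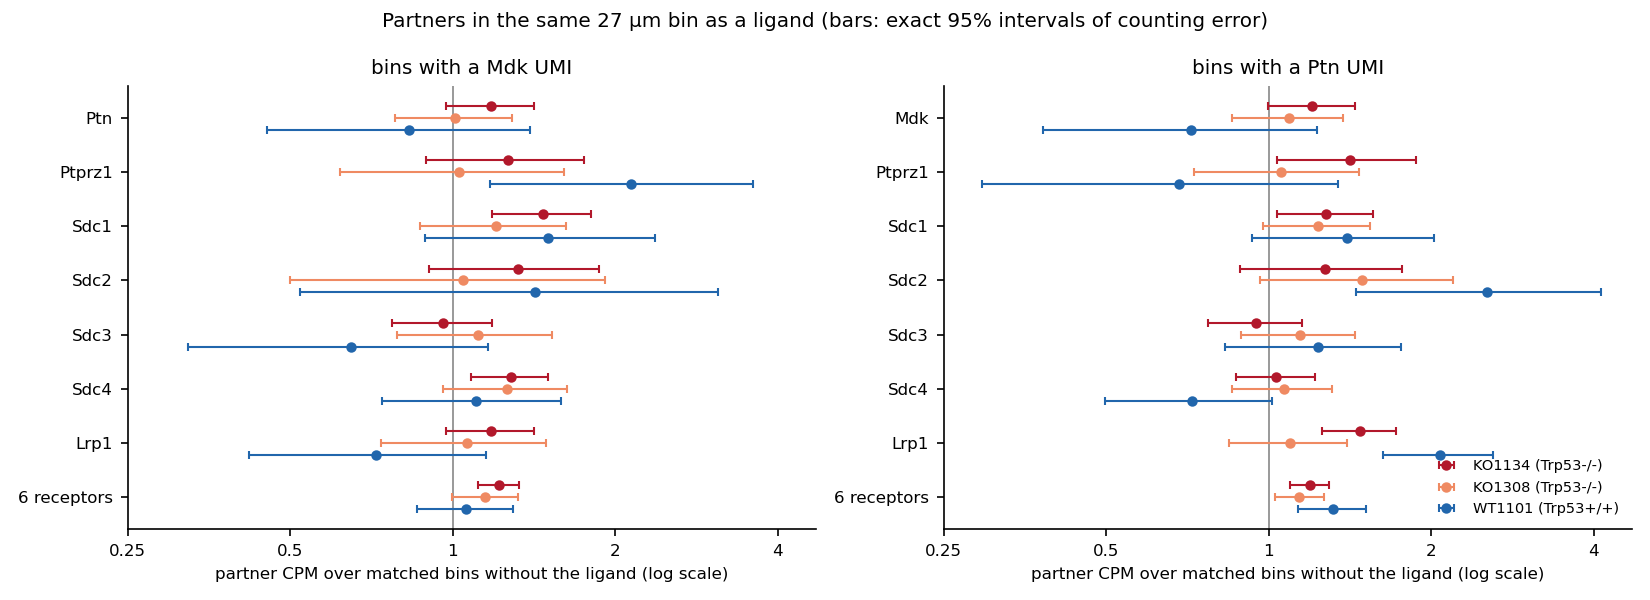
Points give the CPM of each partner in bins with a Mdk UMI (left) or a Ptn UMI (right) over bins without it of the same compartment and depth, on a log axis, with exact 95% intervals of counting error. The widest departure of a receptor is Sdc2 with Ptn in WT1101, at 2.54, and most intervals include 1.

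Next to ligand bins the receptors were slightly above their compartment. Relative to all bins of the same compartment without *Mdk*, the 6 receptors were at 1.10 (1.05 to 1.15), 1.06 (0.992 to 1.13) and 1.16 (1.06 to 1.25) at 27 µm from *Mdk* in KO1134, KO1308 and WT1101, and at 0.996, 0.976 and 0.959 at 54 µm. From *Ptn* they were at 1.10, 1.13 and 1.12 at 27 µm and at 0.896, 0.787 and 0.935 at 162 µm, and in KO1134 at 0.561 (0.401 to 0.764) at 270 µm. *Mdk* at 27 µm from *Ptn* was at 1.26 (1.14 to 1.39), 1.14 (1.01 to 1.28) and 1.46 (1.21 to 1.74), and at 162 µm at 0.723, 0.448 and 0.429. Ring values are matched for compartment but not for depth.

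Over squares of 10 × 10 bins, 3 of the 5 genes most like *Mdk* were *Cd74*, *H2-Eb1* and *H2-Ab1*, all of MHC class II presentation. Likeness was the smallest of the 3 sections' Pearson correlations of log2(CPM + 10) over 132, 196 and 317 squares, which share a library and its depth within a section. These 3 led with 0.60, 0.60 and 0.59, followed by *Gm21541* and *Gm13307* at 0.58 each. *Ptn* ranked 25 of 6976 at 0.49. *Sdc1* and *Sdc3* ranked 554 and 575.

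For *Ptn* the leading genes were *Fcgbp* at 0.64, the protease inhibitor *Serpine2* at 0.62, the basal keratin *Krt5* at 0.62, *Wfdc18* at 0.61 and the matrix protein gene *Sparcl1* at 0.60. *Krt5* is 1 of the genes that defined medulla. Of the receptors with enough UMIs in every section, *Sdc3* came highest, with rank 186 and 0.31. *Ptprz1* and *Sdc2* had too few UMIs to be ranked.

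Other genes of the pathway were counted in the same way. Of 35 further receptors, proteoglycans and enzymes that make or edit their sugar chains, 34 had enough UMIs, 26 were above WT in both KO sections and 3 were below, beside the 44.1% and 31.1% of all genes. The 3 of 34 past 2-fold stand beside 11.9% of all genes. At 2-fold or more in both were *Cspg4*, a chondroitin sulphate proteoglycan of pericytes, at 5.39 and 10.8 times from 62, 70 and 15 UMIs, *Hpse*, the heparanase that cleaves heparan sulphate, at 6.08 and 4.40 times, and *Hs3st1*, a heparan sulphate sulphotransferase, at 2.14 and 3.0 times. None was at 0.5 of WT or less in both. Their median ratios were 1.27 and 1.66.

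By role, and beside the same 44.1% of all genes, the heparan sulphate carriers were above WT in both KO sections in 5 of 6 genes, among them the basement membrane proteoglycan *Hspg2* at 1.35 and 3.46 times and agrin (*Agrn*) at 1.73 and 1.94 times. The chondroitin sulphate synthesis genes were above WT in 4 of 4 and the editing genes in 3 of 3, with the sulphatase *Sulf1* at 1.66 and 1.94 times. Of 7 further receptors, 4 were above WT in both. Nucleolin (*Ncl*) was below WT in both at 0.769 and 0.952, and *Nrp1* was at 1.80 and 3.44 times. Of 12 heparan sulphate synthesis genes, 8 were above WT in both and 2 below, *Hs2st1* at 0.552 and 0.804 and *Hs6st1* at 0.402 and 0.916. *Ndst2* was at 4.65 times in KO1134 and 1.58 times in KO1308.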

How the data were processed

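On GRCm38, the authors ran BSTMatrix and STAR on the reads and deposited UMI counts, not normalised, for each gene in each spot with its position. The 8 genes, the marker lists and the comparisons were chosen with earlier results of these data known, and the text names all 8 genes, pathway genes past 2-fold or at the extremes, and the 5 genes most like each ligand. Spots, 4.8 µm apart, were summed in 27 µm bins, and bins were kept in connected groups of at least 200. Deposited totals were 31237062 UMIs in KO1134, 21089885 in KO1308 and 41581477 in WT1101. Of spot barcodes, 54718 to 58533 were shared between pairs of sections. CPM came from summed counts, with 95% intervals (Poisson for levels, binomial for shares and, conditional on the sum, for ratios, all exact). Intervals for matched bins take the matched level as known. Matching used 10 depth strata per compartment. Genes past 2-fold needed 50 UMIs in all, and a section at 0 was set to 3 UMIs. Weighting by WT compartments, distance classes, the split of B-cell zones and medulla, areas off tissue, the 1.5-fold share and the shares above and below WT were added after seeing the data. Estimators were tested on simulated data. Python 3.11.15, numpy 2.4.6, scipy 1.17.1 and pandas 2.3.3 were used.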

Additional observations from a re-analysis of the deposited data

Results flagged for a closer look

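Bins at least 135 µm from kept tissue were not part of the comparisons, and they can include small pieces of tissue. They held member UMIs above the limit that a count of 0 allows, which is 3 UMIs. In the KO1308 section they held 50 UMIs of *Mdk*, 70 of *Ptn*, 27 of *Ptprz1*, 55 of *Sdc1*, 22 of *Sdc2*, 85 of *Sdc3*, 143 of *Sdc4* and 140 of *Lrp1*, in 9952 bins. In the WT section they held 7 UMIs of *Sdc1* and 4 of *Sdc4*, in 1077 bins.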

How the results depend on the processing

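Of 303 values recomputed, 273 were labelled the same, 29 moved and 1 changed side. For a mean ratio to WT, the same meant within the SD of the 2 KO ratios. For other ratios it meant within the counting interval, and for counts and percents within 1.5-fold. Leaving out 1 KO section cannot shift a mean ratio past that SD, so those labels say nothing of stability. Members at 2-fold or more over WT in both KO sections, 1 as reported, were 2 without fat and B-cell zone (*Mdk* and *Ptn*) and 0 at WT compartment weights, and from 2 to 3 with 1 KO section left out (*Mdk* and *Sdc3* in KO1134, *Mdk*, *Ptn* and *Sdc1* in KO1308). The mean *Mdk* ratio of 3.14 was 2.62 for thinned shares and 2.34 at WT weights, and 2.78 to 3.49 with 1 KO section. *Ptprz1* over WT was 1.36 in the mean, 0.958 without KO1308 and 1.77 without KO1134. The *Mdk* medulla over cortex ratio was 4.29 in KO1134 and 2.71 in KO1308 without *Ccl21a*. That of *Ptn* in KO1134 was 2.84 with windows of 5 × 5 bins and 3.80 without the groups next to B-cell zone, and in KO1308 it was 4.05 with lists divided by their section share. With all ligand-negative bins as reference, the receptor ratio in *Mdk* bins of KO1134 was 1.36, and in *Ptn* bins of KO1134 and KO1308 1.35 and 1.26. With at least 2 ligand UMIs it was 1.43 in *Mdk* bins of WT1101, and 1.01 and 1.06 in *Ptn* bins of KO1308 and WT1101. At 1.5-fold, 21.6% of genes were higher and 7.41% lower in both KO sections, with 4 and 0 members. The cause of these shifts was not tested. No paired analysis was possible because each mouse gave 1 section and replicate numbers do not link mice. Low counts in single bins limit the precision of the same-bin ratios.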
